A study of Mus musculus with 12 samples.

Results

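The genes described are those of enzymes and receptors that handle purines outside the cell, in donor CD4+ T cells dividing in an allogeneic host. The list holds 7 genes, Entpd1, Nt5e, Acpp, Adora2a, P2rx7, Cd38 and Dpp4. They were chosen from measured values of these same arrays, so their differences between the groups are given as descriptions without a p-value. Of the 7 genes, 5 had a probe set under their own symbol (1 each), out of 19938 genes measured. Adora2a and Cd38 were not analysed here. The donor cells came from spleens of C57Bl/6 mice, carried the division dye CFSE and were injected into the blood of B6D2F1 hosts, which sets off a graft-versus-host response. Into the peritoneum, hosts of 4 arrays were given TCDD once (15 µg/kg, day 0), hosts of 4 arrays Cl-BBQ on each of days 0 and 1 (2 mg/kg), and hosts of the last 4 arrays vehicle on both days. Donor and host mice were 10 to 12 weeks old when purchased. On day 2 (48 hr), CD4+ cells of spleen and lymph node with at least 2 divisions by dye dilution were enriched on magnetic beads and sorted. TCDD is a persistent dioxin, and it and Cl-BBQ are ligands of the AhR (aryl hydrocarbon receptor), which turns on its target genes once a ligand has bound. The AhR can be engaged in host and donor cells alike, and dose and schedule differed between the compounds.

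ATP and NAD that leave stressed or activated cells act on neighbouring cells through purine receptors until enzymes on the cell surface break them down. The ectonucleotidase CD39, encoded by Entpd1, takes ATP and ADP to AMP, and the 5′-nucleotidase CD73, encoded by Nt5e, takes AMP to adenosine. Adenosine acts on T cells mainly through the receptor encoded by Adora2a, which raises cyclic AMP and restrains activation, and regulatory T cells of the mouse are known for carrying CD39 together with CD73. Acpp encodes prostatic acid phosphatase, whose membrane form also takes AMP to adenosine in mouse sensory neurons. P2rx7 encodes an ATP-gated ion channel, and Dpp4 encodes CD26, a surface peptidase that in humans binds adenosine deaminase.

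Values are log2 intensities after robust multi-array averaging (RMA), so a difference of 1 is a doubling of intensity. They compare 1 gene between arrays and not 1 gene with another. Medians of the 12 arrays lay between 7.113 and 7.24, and any 2 arrays had an r of at least 0.9878 over all probe sets. The T cell genes Cd3e and Cd4 were bright in all groups, Cd4 at 12.39 ± 0.06 in TCDD, 12.42 ± 0.12 in Cl-BBQ and 12.44 ± 0.06 in vehicle arrays (SD, n = 4 each). None of 11 measured CD4 T cell identity genes was called with TCDD or with Cl-BBQ against vehicle. Cyp1b1, a cytochrome P450 gene and known AhR target, spanned 9.67 to 9.92 in TCDD arrays, 5.93 to 8.24 in Cl-BBQ arrays and 6.25 to 6.57 in vehicle arrays. The value of 5.93 was that of Cl-BBQ replicate 3, which lay below all vehicle arrays. In sorted cells measured in bulk, a change in the share of a cell type and a change in RNA per cell cannot be told apart. The labels call the samples biological replicates and do not say how many mice gave the cells of 1 array.

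Acpp was the only 1 of the 5 measured genes whose arrays stood apart between treatment and vehicle. It read 8.16, 8.56, 8.39 and 8.74 in TCDD arrays 1 to 4, 8.07, 8.47, 7.96 and 8.38 in Cl-BBQ arrays, and 7.81, 7.77, 7.58 and 7.79 in vehicle arrays. Every TCDD array and every Cl-BBQ array lay above every vehicle array, with a gap between the nearest arrays of 0.36 for TCDD and 0.15 for Cl-BBQ. The means were 8.46 ± 0.25 in TCDD, 8.22 ± 0.24 in Cl-BBQ and 7.74 ± 0.11 in vehicle arrays (SD, n = 4 each; probe set 10596303). Acpp was thus 1.65-fold higher with TCDD than with vehicle, a log2 difference of 0.73 with a 95% interval of 0.46 to 0.99. With Cl-BBQ it was 1.40-fold higher, a log2 difference of 0.48 (interval 0.22 to 0.75). The TCDD and Cl-BBQ arrays overlapped, and TCDD minus Cl-BBQ was 0.24 (interval −0.02 to 0.51). The array nearest to vehicle was Cl-BBQ replicate 3, the array that was also lowest in Cyp1b1. Leaving out any single array kept the TCDD difference between 0.63 and 0.83 and the Cl-BBQ difference between 0.40 and 0.57.

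**Figure D1:**
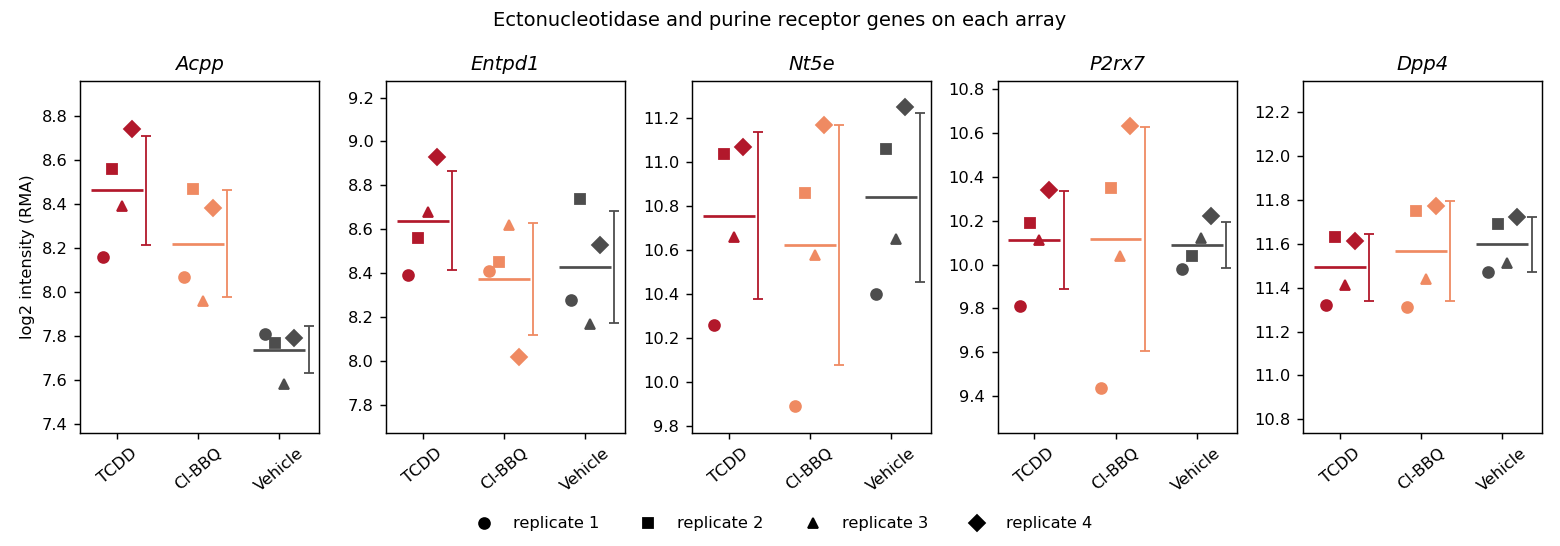
log2 intensity (vertical axis, the same span of 1.6 in each panel) of the 5 measured genes on each of the 12 arrays, by group. Symbols are replicate numbers, horizontal bars the means and brackets the SD of 4 arrays. In the Acpp panel all TCDD and Cl-BBQ arrays (7.96 to 8.74) lie above the vehicle arrays (7.58 to 7.81), while the groups overlap in the other panels.

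The sequences before the gene starts are shown for Acpp, whose groups stood apart, and for Entpd1 and Nt5e, whose windows hold the core motif of the xenobiotic response element, the DNA site that the AhR and its partner ARNT bind. RefSeq windows (GRCm38.p6) of 250 bases before the start were found for 6 of the 7 genes, 8 windows in all, since Entpd1 and P2rx7 have 2 each. The motif searched was GCGTG on both strands. It occurred in 2 of the 8 windows (25%), against 28.2% of 32851 windows of all genes. The Entpd1 match begins 18 bases and the Nt5e match 138 bases before the start, both on the strand of the gene. The 1 window of Acpp, the single windows of Cd38 and Dpp4, both windows of P2rx7 and the other window of Entpd1 hold none, which says only that these letters are not in those 250 bases. The Acpp window is chr9:104337723-104337972 on the minus strand, that of Entpd1 chr19:40612116-40612365 and that of Nt5e chr9:88327359-88327608, both on the plus strand. Each is printed in the direction of the gene, in lower case with the motif in capitals.
Acpp: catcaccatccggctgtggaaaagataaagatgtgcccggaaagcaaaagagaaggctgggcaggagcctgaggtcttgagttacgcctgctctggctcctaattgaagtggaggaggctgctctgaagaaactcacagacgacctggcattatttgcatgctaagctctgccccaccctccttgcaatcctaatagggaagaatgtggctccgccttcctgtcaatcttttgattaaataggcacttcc
Entpd1: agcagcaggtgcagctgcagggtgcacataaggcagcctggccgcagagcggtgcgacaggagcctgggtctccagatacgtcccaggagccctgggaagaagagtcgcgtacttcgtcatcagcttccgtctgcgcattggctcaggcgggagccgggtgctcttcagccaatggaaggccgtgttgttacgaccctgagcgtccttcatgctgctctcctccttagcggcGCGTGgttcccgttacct
Nt5e: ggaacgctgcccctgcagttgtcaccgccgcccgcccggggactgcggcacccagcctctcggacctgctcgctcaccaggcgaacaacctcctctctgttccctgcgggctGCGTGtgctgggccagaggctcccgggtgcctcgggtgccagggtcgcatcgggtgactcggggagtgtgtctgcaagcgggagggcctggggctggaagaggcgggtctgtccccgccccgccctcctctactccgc
Bases G and C made up 72.0% of the Nt5e window, 62.4% of this Entpd1 window and 50.4% of the Acpp window, against a median of 52.4% over all windows. The CG pairs, which the motif contains, numbered 21, 18 and 5 in that order, against a median of 6.

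The groups overlapped in the other 4 genes. Entpd1 read 8.39, 8.56, 8.68 and 8.93 in TCDD arrays 1 to 4, 8.41, 8.45, 8.62 and 8.02 in Cl-BBQ arrays, and 8.28, 8.74, 8.17 and 8.53 in vehicle arrays. The highest value was TCDD replicate 4 and the lowest Cl-BBQ replicate 4, and the vehicle arrays lay within the span of the others. The log2 difference was 0.21 with TCDD against vehicle (interval −0.10 to 0.52), −0.06 with Cl-BBQ against vehicle (interval −0.36 to 0.25) and 0.26 with TCDD against Cl-BBQ (interval −0.04 to 0.57).

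Entpd1 is a known marker of regulatory T cells, so the level of such markers is given beside it. The mean log2 level of 9 measured regulatory T cell genes (Foxp3, Il2ra, Ikzf2, Ctla4, Il10, Tnfrsf18, Itgae, Lrrc32 and Capg) spanned 9.72 to 9.96 in TCDD, 9.47 to 9.73 in Cl-BBQ and 9.48 to 9.62 in vehicle arrays. Their summed intensity spanned 15700 to 17600 in TCDD, 13000 to 15700 in Cl-BBQ and 12400 to 14000 in vehicle arrays. With TCDD against vehicle 3 of the 9 were called higher (Ctla4, Il10 and Itgae) and 0 lower, beside 1.24% of all genes called. With Cl-BBQ 0 of 9 were called, beside 0.196%. The list did not move as 1. Log2 differences with TCDD were 1.08 for Il10, 0.84 for Itgae, 0.49 for Il2ra and 0.34 for Ctla4. They were 0.16 for Tnfrsf18, 0.14 for Capg, 0.06 for Foxp3, 0.05 for Lrrc32 and −0.18 for Ikzf2. Foxp3, the defining transcription factor, was at 8.11 ± 0.12 in TCDD, 7.90 ± 0.16 in Cl-BBQ and 8.05 ± 0.12 in vehicle arrays (SD, n = 4 each). Within the groups, the deviations of Entpd1 and of this list from their group means correlated at r = 0.77 over 12 arrays, which share the sort and the normalization. Cl-BBQ replicate 4 was the lowest Cl-BBQ array both in Entpd1 (8.02) and in the list mean (9.47). Its list mean was low mostly through Il2ra (10.38) and Il10 (8.15), which varied the most among Cl-BBQ arrays (SD 0.66 and 0.49). Foxp3 was at 7.73 on that array and at 7.82 to 8.10 on the other Cl-BBQ arrays. The part of regulatory T cell content in the Entpd1 values was not tested.

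Nt5e read 10.26, 11.04, 10.66 and 11.07 in TCDD arrays 1 to 4, 9.89, 10.86, 10.58 and 11.17 in Cl-BBQ arrays, and 10.40, 11.06, 10.65 and 11.25 in vehicle arrays. The spread inside each group (0.81, 1.28 and 0.85 from lowest to highest) was larger than any difference between group means. TCDD minus vehicle was −0.09 (interval −0.60 to 0.43), Cl-BBQ minus vehicle −0.22 (interval −0.73 to 0.30) and TCDD minus Cl-BBQ 0.13 (interval −0.38 to 0.64).

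The ATP-gated channel gene P2rx7 read 9.81, 10.19, 10.11 and 10.34 in TCDD arrays, 9.44, 10.35, 10.04 and 10.63 in Cl-BBQ arrays, and 9.98, 10.04, 10.12 and 10.22 in vehicle arrays. The group means of 10.11 ± 0.22, 10.12 ± 0.51 and 10.09 ± 0.11 lay close together, and the Cl-BBQ arrays spread the most (SD, n = 4 each). TCDD minus vehicle was 0.02 (interval −0.36 to 0.41), Cl-BBQ minus vehicle 0.03 (interval −0.36 to 0.41) and TCDD minus Cl-BBQ −0.01 (interval −0.39 to 0.38).

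Dpp4 was bright, with 11.32, 11.63, 11.41 and 11.61 in TCDD arrays, 11.31, 11.75, 11.44 and 11.77 in Cl-BBQ arrays, and 11.47, 11.69, 11.51 and 11.72 in vehicle arrays. Its groups overlapped throughout. TCDD minus vehicle was −0.10 (interval −0.32 to 0.11), Cl-BBQ minus vehicle −0.03 (interval −0.24 to 0.18) and TCDD minus Cl-BBQ −0.07 (interval −0.29 to 0.14).

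**Figure D2:**
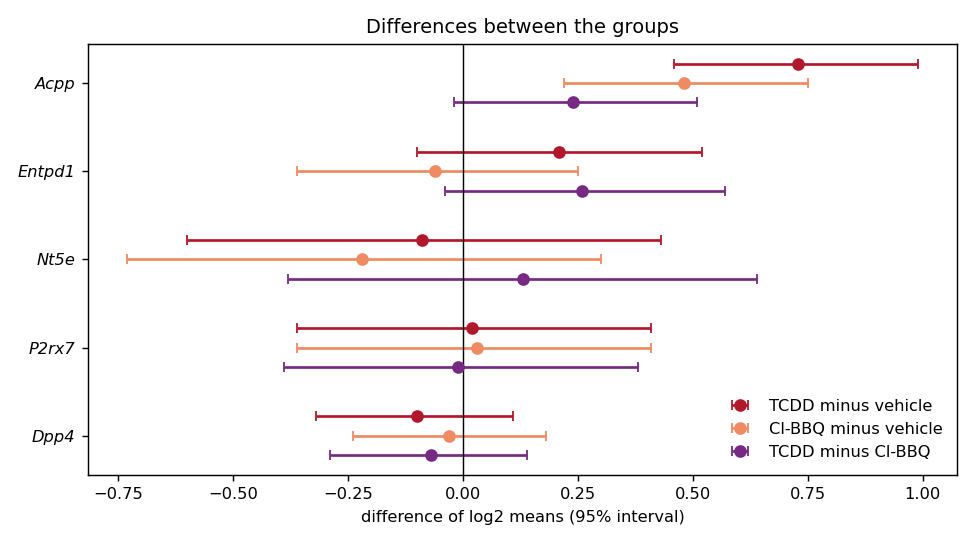
Differences of log2 group means (horizontal axis) with 95% intervals from the limma fit over all genes, 4 arrays per group, for the 5 measured genes and 3 comparisons. Both Acpp differences from vehicle, 0.73 with TCDD and 0.48 with Cl-BBQ, lie right of 0 with their intervals, and all other intervals include 0. The genes were chosen with these contrasts, so the intervals are descriptions and not tests. In the fit over all genes Acpp was not called with Cl-BBQ.

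In the fit over all genes, where a gene was called at an adjusted p under 0.05, 1 of the 5 measured genes was called with TCDD against vehicle, namely Acpp, beside 1.24% of all genes. With Cl-BBQ against vehicle 0 of 5 were called, beside 0.196% of all genes, and with TCDD against Cl-BBQ 0 of 5, beside 0.015%. Groups that did not overlap were found for 1 of 5 with TCDD against vehicle (5.8% of all genes), for 1 of 5 with Cl-BBQ against vehicle (3.85%) and for 0 of 5 between the compounds (2.04%). Since these contrasts chose the genes, nothing is read from those shares. The median log2 difference of the 5 was 0.02 with TCDD and −0.03 with Cl-BBQ against vehicle, where the medians of all genes were 0.00 and 0.01. Both comparisons use the same vehicle arrays.

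Nt5e, Dpp4 and P2rx7 varied together from array to array more than they varied with treatment. Nt5e was lowest on replicate 1, then 3, then 2, and highest on replicate 4, in each of the 3 groups. Its deviations from the group means on the replicate 1 arrays were −0.50 in TCDD, −0.73 in Cl-BBQ and −0.44 in vehicle, and on the replicate 4 arrays 0.32, 0.55 and 0.41. Dpp4 was lowest on replicate 1 in every group as well, and replicates 2 and 4 lay above the group mean in all 3 groups. P2rx7 was lowest on replicate 1 and highest on replicate 4 in every group. Acpp had this order in TCDD arrays (1, 3, 2, 4) and other orders in Cl-BBQ and vehicle arrays, and Entpd1 had a different order in each group. The fit behind the intervals did not include the replicate number, so their width contains these shifts. Between arrays of the same number (1 to 4), Dpp4 TCDD minus vehicle was −0.15, −0.07, −0.10 and −0.10. Dpp4 Cl-BBQ minus vehicle was −0.16, 0.05, −0.07 and 0.05. For Nt5e these differences were −0.15, −0.02, 0.00 and −0.18 with TCDD. With Cl-BBQ they were −0.51, −0.20, −0.07 and −0.08 for Nt5e. The labels do not say that a number stands for a shared donor, day or batch, and no p-value is given for these differences.

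**Figure D3:**
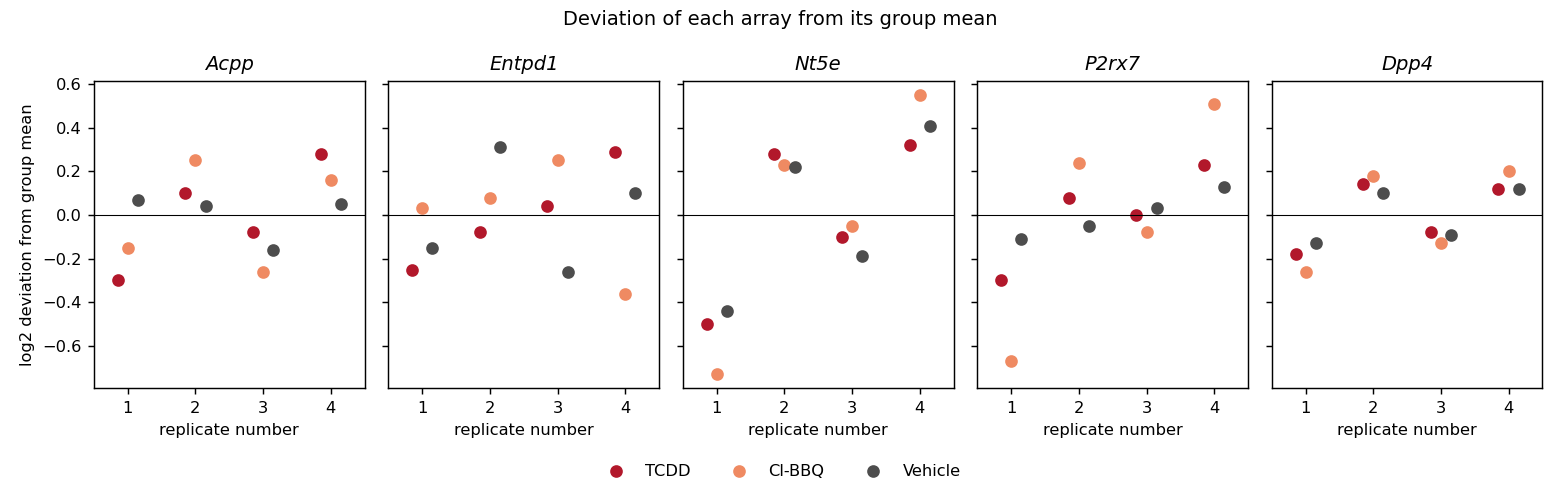
Deviation of each array from the mean of its own group in log2 units (vertical axis) against the replicate number in the labels (horizontal axis), for the 5 measured genes; colours are the groups. In Nt5e and Dpp4 all 3 arrays numbered 1 and all 3 numbered 3 lie below 0 and all arrays numbered 2 and 4 above it, whereas the Entpd1 points of 1 number lie on both sides.

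Over the 12 arrays, Nt5e correlated with Dpp4 at r = 0.90 and with P2rx7 at r = 0.86, and Dpp4 with P2rx7 at r = 0.82; after group means were removed these were 0.95, 0.89 and 0.86. Acpp, at r = 0.18 to 0.38 with these 3 genes over the arrays, correlated with them at 0.68 to 0.81 once group means were removed. Entpd1 stayed between −0.09 and 0.20 with the other 4 genes after that step. Such correlations describe arrays that share a sort, a scale and possibly a replicate series, and no test was made. The mean level of the CD4 T cell identity genes, between 12.01 and 12.19 on all arrays, followed the same deviations, with r = 0.78 for Nt5e, 0.85 for Dpp4, 0.79 for P2rx7 and 0.81 for Acpp. That of 5 NK cell genes, between 4.77 and 5.04, did so at 0.78 for Nt5e, 0.82 for Dpp4, 0.69 for P2rx7 and 0.75 for Acpp. Of these NK cell genes, Klrb1c varied the most (6.12 to 7.53, SD 0.34 to 0.47 within groups). Ncr1, Klra8, Klre1 and Klri2 were dim (3.28 to 5.91, SD up to 0.21), so the mean moved mostly with 1 gene. Over Nt5e, Dpp4, P2rx7 and Acpp, r lay between 0.21 and 0.56 for the CD8 genes, 0.30 and 0.45 for myeloid and dendritic cell genes, −0.18 and 0.22 for B and plasma cell genes, and −0.14 and 0.15 for regulatory T cell genes. It was negative for the neutrophil and platelet genes (−0.63 to −0.25) and for the erythroid genes (−0.47 to −0.24). Their part in the member values was not tested.

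Genes with the pattern most like each member over the 12 arrays were found by Pearson's r among all genes. For Acpp these were Ifngr1, which encodes the ligand-binding chain of the interferon-γ receptor (r = 0.971), Axin2, a known target and inhibitor of the Wnt pathway (r = 0.971), and Rtn4rl1, a relative of the Nogo receptor (r = 0.967). Their log2 differences were 0.38, 0.57 and 0.53 with TCDD and 0.27, 0.35 and 0.43 with Cl-BBQ against vehicle. For Entpd1 the 3 nearest were Fgl2, a fibrinogen-like protein known as a product of regulatory T cells (r = 0.843), Mafg, a small Maf transcription factor (r = 0.834), and 4933411G06Rik (r = 0.832). Nt5e was nearest to Rap2c, a small GTPase (r = 0.961), Pqlc3 (r = 0.954) and Sprtn, a DNA-protein crosslink protease (r = 0.953). P2rx7 was nearest to Gskip (r = 0.978), Septin6 (r = 0.955) and Btbd11 (r = 0.954), and Dpp4 to Gabarap, of the autophagy machinery (r = 0.975), Bcl9 (r = 0.965) and Irf2bp2 (r = 0.959). The nearest genes of Nt5e, P2rx7 and Dpp4 differed by at most 0.20 log2 in size between treatment and vehicle. Since r was taken with group means included, the choice itself favours genes whose treatment differences are like those of the member. After group means were removed, r with Acpp was 0.89 for Ifngr1, 0.89 for Axin2 and 0.91 for Rtn4rl1.

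A further list held 98 genes of purine handling and of peptidases set beside Dpp4, of which 87 were measured (11 of them peptidases). It was written with earlier results of these data known. Its shares and p-values are therefore given as descriptions, and no enrichment is read from them. With TCDD against vehicle, 1 rose and 1 fell at an adjusted p under 0.05 in limma (2.3%, where all genes gave 1.24%), and 15 had an unadjusted p under 0.05 (17.2%, where all genes gave 8.69%). The median log2 difference of the list was 0.00, as for all genes. Groups did not overlap in 9 of the 87 (10.3%, where all genes gave 5.8%). With Cl-BBQ against vehicle 0 of 87 were called in limma, 8 had an unadjusted p under 0.05 (9.2%, where all genes gave 7.91%), and groups did not overlap in 6 (6.9%, where all genes gave 3.85%). Between TCDD and Cl-BBQ 0 of 87 were called in limma, 2 had an unadjusted p under 0.05 (2.3%, where all genes gave 2.99%), and groups did not overlap in 3 (3.45%, where all genes gave 2.04%).

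The gene that rose was Pde3b, a phosphodiesterase that breaks down cyclic AMP, the messenger below the Adora2a receptor. It read 11.28, 11.38, 11.49 and 11.36 in TCDD arrays, 11.24, 11.28, 11.36 and 11.26 in Cl-BBQ arrays, and 11.09, 11.16, 11.10 and 11.06 in vehicle arrays. All TCDD and all Cl-BBQ arrays lay above the vehicle arrays. Pde3b was 1.21-fold higher with TCDD than with vehicle (log2 difference 0.27, interval 0.17 to 0.38; adjusted p = 0.00957 in limma). With Cl-BBQ the difference was 0.18 (interval 0.07 to 0.29; adjusted p = 0.247 in limma). Without TCDD replicate 3 the TCDD difference was 0.24 and its adjusted p in limma 0.0537, and after median centring of the arrays the call was lost as well (0.26, adjusted p = 0.0658 in limma). The other 14 measured genes of the cyclic AMP branch were not called, among them Creb1, a transcription factor that cyclic AMP activates, at 12.05 ± 0.05 in TCDD and 12.07 ± 0.02 in vehicle arrays (SD, n = 4 each).

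The gene that fell was Nt5c2, a 5′-nucleotidase of the cytosol that acts on IMP and GMP. It read 8.57, 8.55, 8.51 and 8.64 in TCDD arrays, 8.39, 8.62, 8.53 and 8.65 in Cl-BBQ arrays, and 8.93, 8.90, 8.77 and 8.98 in vehicle arrays. Vehicle arrays were above all treated arrays. The log2 difference was −0.33 with TCDD against vehicle (interval −0.49 to −0.17; adjusted p = 0.0449 in limma) and −0.35 with Cl-BBQ (interval −0.51 to −0.19; adjusted p = 0.0877 in limma). The TCDD call depended on which arrays were used. It was lost without any 1 of the 4 TCDD arrays or without vehicle replicate 1, 2 or 4. Adjusted p in limma reached 0.176, and differences were −0.30 to −0.37 over all 8 such fits. It was kept without vehicle replicate 3 (adjusted p = 0.0343 in limma) and lost after median centring (adjusted p = 0.0519 in limma). Quantile normalization, array weights and the replicate block kept it too (adjusted p = 0.00734, 0.0108 and 0.0247 in limma). Of the 12 phosphatases and nucleotidases measured, the other 11 were not called, including the low-molecular-weight phosphatase gene Acp1 at 11.83 ± 0.02 in TCDD and 11.88 ± 0.06 in vehicle arrays (SD, n = 4 each). Nt5c2 and Acpp thus had opposite signs of difference with both compounds.

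Of the 5 further groups of enzymes and transporters, none held a gene called in any of the 3 comparisons in limma. The 7 other NTPDase genes, relatives of Entpd1, had log2 differences from −0.10 to 0.15 with TCDD against vehicle; Entpd5, an enzyme of the endoplasmic reticulum, was at 10.41 ± 0.11 in TCDD and 10.26 ± 0.15 in vehicle arrays (SD, n = 4 each; adjusted p = 0.648 in limma). The 4 measured NPP genes, which encode nucleotide pyrophosphatases and phosphodiesterases, spanned −0.24 to 0.07, with Enpp4 at −0.14. Among the 5 measured genes listed as NAD ectoenzymes (Bst1, Art1, Art3, Art4 and Art5), the differences ran from −0.05 for Art4 to 0.09 for Bst1. Art2a-ps and Art2b of the same group were not analysed here. The 11 peptidase genes set beside Dpp4 spanned −0.22 to 0.13, the upper end being Prep, a prolyl peptidase. In the 13 measured genes of adenosine breakdown, salvage and transport, the differences ran from −0.36 for Adk, which phosphorylates adenosine, to 0.18, and the salvage enzyme gene Hprt was at 12.58 ± 0.07 in TCDD and 12.58 ± 0.03 in vehicle arrays (SD, n = 4 each). The 3 further adenosine receptor genes of the list were not analysed here.

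Receptor and release genes other than P2rx7 included the largest differences of the list with TCDD against vehicle. P2rx4, an ATP-gated channel related to P2rx7, read 8.71, 9.26, 9.12 and 9.31 in TCDD arrays, 8.37, 9.09, 8.82 and 9.19 in Cl-BBQ arrays, and 8.68, 8.57, 8.31 and 8.82 in vehicle arrays. Its TCDD and vehicle arrays overlapped through TCDD replicate 1 alone, and the log2 difference of 0.51 (interval 0.15 to 0.86) did not pass the test over all genes (adjusted p = 0.254 in limma). With Cl-BBQ the difference was 0.27 (interval −0.08 to 0.63). The 6 measured P2X genes beside P2rx7 and the 8 genes listed as P2Y held no call. P2ry10, a lymphocyte receptor gene listed with the P2Y genes by its symbol alone, was at 10.84 ± 0.06 in TCDD and 10.65 ± 0.12 in vehicle arrays (SD, n = 4 each, adjusted p = 0.370 in limma). Of the 6 genes of ATP release, 0 were called with TCDD against vehicle, and the differences ran from 0.02 for Panx3 to 0.43. Slc17a9, the vesicular nucleotide transporter, was at the upper end (0.43, interval 0.20 to 0.66; adjusted p = 0.0871 in limma), and Panx1, a channel that releases ATP from T cells, was at 10.49 ± 0.07 in TCDD and 10.37 ± 0.06 in vehicle arrays (SD, n = 4 each).

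**Figure D4:**
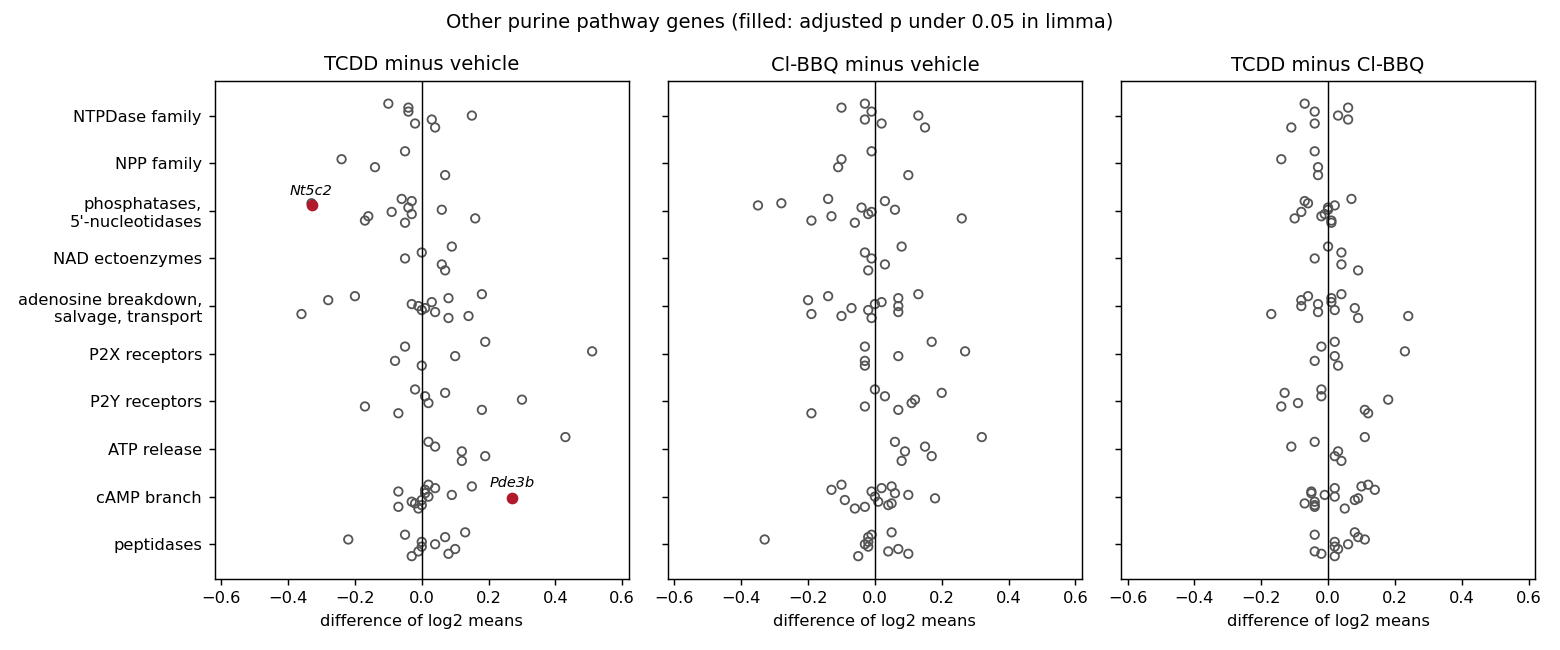
Differences of log2 group means (horizontal axes) of the 87 measured genes of the further list, 11 of them peptidases, in 10 groups of genes (rows), for the 3 comparisons. Filled points passed an adjusted p under 0.05 in limma; these are Pde3b (0.27) and Nt5c2 (−0.33) with TCDD against vehicle, and no gene in the other panels.

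Markers of other cells were measured beside the members. The mean log2 level of 11 B and plasma cell genes spanned 6.38 to 6.48 in TCDD, 6.43 to 6.49 in Cl-BBQ and 6.47 to 6.63 in vehicle arrays. With TCDD 2 of the 11 were called lower (Cd22 and Bank1) and 0 higher, beside 1.24% of all genes called. The mean log2 level of 12 myeloid and dendritic cell genes spanned 6.60 to 6.65, 6.58 to 6.70 and 6.57 to 6.63 in the same order, with 0 called. The 2 CD8 genes spanned 8.37 to 8.70 in TCDD, 8.32 to 8.54 in Cl-BBQ and 8.36 to 9.18 in vehicle arrays, the upper value being vehicle replicate 2, and 0 of them were called; the same held for 5 NK cell, 2 erythroid and 8 neutrophil or platelet genes. The part of these cells in the member values was not tested.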

How the data were processed

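Each of the 12 samples was measured on 1 mouse array. The deposited table holds log2 intensities made by the authors with RMA, per the submitters' processing notes, with the version not given in the sources used here. That the scale is log2 was taken from the range of the values (2.4929 to 14.158). Of 35556 probe sets, 21789 carried 1 gene symbol in the platform annotation, 1621 several and 12146 were not listed. The probe set with the highest mean was kept for each of 19938 genes.

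The model (limma 3.58.1 under R 4.3.3) held the means of all 3 groups, with an intensity trend and 9 degrees of freedom left; tests were two-sided, with Benjamini-Hochberg adjustment over all genes. The fit was checked on simulated data. Intervals are at the 95% level; their precision is limited by how many arrays there are. The members and lists were chosen with earlier results of these data known. Named beyond the members were called list genes, the gene with the highest mean in each group of the list, and the 3 genes nearest to each member; Adk, Slc17a9 and the genes at the ends of ranges were chosen after their values were seen. Deviations of TCDD and Cl-BBQ arrays of the same number had a positive r across genes in 4 of 4 pairs (0.6057, 0.1129, 0.1567 and 0.3654). Arrays of different numbers were not compared, so these values do not settle whether the number pairs the arrays. The fit with the number as a block changed no call of a member or list gene between TCDD and Cl-BBQ. Alternatives were the normalization, centring, intensity trend, filter on dim genes, probe sets, array weights, samples in the fit, replicate block and each replicate left out. Figures were drawn with matplotlib 3.10.9.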

Additional observations from a re-analysis of the deposited data

Results flagged for a closer look

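In groups of 4 arrays, an array was singled out when its gap to the nearest other array was above Dixon's 95% critical share of the range of the group, which chance gives in about 5% of groups. Of 51 groups checked (17 genes in 3 groups), 2 met this. Vehicle replicate 3 read 7.58 in Acpp, where the other vehicle arrays lay at 7.77 to 7.81. It was the lowest vehicle array, and without it Acpp was still higher with TCDD than with vehicle, by 0.67 log2. TCDD replicate 2 read 7.26 in Art4, an ADP-ribosyltransferase gene, where the other TCDD arrays lay at 7.34 to 7.36.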

How the results depend on the processing

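The number of genes of the further list called with TCDD against vehicle, 2 in the reported fit, was 0 after median centring, 5 with array weights, 6 with the replicate block, and 0 to 3 with each replicate left out. The block added Adk, Slc17a9, P2rx4 and Nt5c3, another cytosolic nucleotidase gene. With Cl-BBQ against vehicle, where 0 were called, quantile normalization gave 2 (Nt5c2 and the peptidase gene Enpep) and the replicate block 1 (Nt5c2). Of the members, 0 were called with Cl-BBQ in the reported fit and 1 with the block (Acpp). Over all genes, vehicle arrays numbered 1 to 4 correlated with same-numbered TCDD arrays at −0.07013, 0.1403, 0.04021 and 0.1816. With same-numbered Cl-BBQ arrays they correlated at −0.134, 0.0871, −0.008755 and −0.03625. The sign of r with vehicle arrays thus changed with the number, although Nt5e and Dpp4 followed the number in vehicle arrays too. The values of 0.1403 and 0.1816 were of the size of the smaller ones between TCDD and Cl-BBQ, 0.1129 and 0.1567. The cause of these shifts was not tested. No member log2 difference moved by more than its replicate SD pooled over the 3 groups, but with 1 array left out several small ones changed sign. Entpd1 spanned 0.11 to 0.31 with TCDD and −0.14 to 0.06 with Cl-BBQ against vehicle, Nt5e −0.23 to 0.08 and −0.40 to 0.03, and Dpp4 −0.15 to −0.05 and −0.10 to 0.06. P2rx7 spanned −0.05 to 0.12 with TCDD and −0.14 to 0.25 with Cl-BBQ, the upper value without Cl-BBQ replicate 1. Over all genes, calls with TCDD were 247 in the reported fit, 391 with array weights, 397 with the block and 150 without TCDD replicate 3; calls with Cl-BBQ were 39, and 3 without Cl-BBQ replicate 2 to 111 with the block, so that the absence of calls with Cl-BBQ is itself uncertain.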

Other observations

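A measure chosen after the order of the arrays had been seen gives the share of a gene's variance within the groups that the replicate number accounts for. It was 95% for Nt5e, with 4 of 19938 genes higher, and 93.6% for Dpp4, with 13 genes higher. P2rx7 was at 69.7% and Acpp at 65.5%, Entpd1 at 14.2%, and the median of all genes at 37.0%. No test was made, and whether the number stands for a shared donor, day or batch is not given in the sources used here.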
